A study of Mus musculus with 12 samples.

Results

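The nuclear genes that govern mitochondrial biogenesis, 9 in number, were followed through 12 RNA sequencing libraries of mouse forelimb and osteoclast culture: Ppargc1a, Ppargc1b, Esrra, Nrf1, Tfam, Tfb1m, Tfb2m, Polrmt and Polg. They were chosen by symbol, though with earlier results of these data known. The choice was from 51826 genes in the forelimb table and 55401 in the culture tables, and each of the 9 was found in both. The forelimbs came from mouse embryos at stage E12.5, either wild type (WT) or with the conditional deletion Impdh2 Prx-cKO; Prx drivers act in limb bud mesenchyme, so that muscle, skin, blood and vessels of the limb keep the gene. The cultures were grown from bone marrow of WT mice or of mice with the deletion Impdh2 LysM-cKO, whose driver acts in myeloid cells, the precursors of osteoclasts included. Its product, IMPDH2, catalyses the rate-limiting step in making guanine nucleotides. Each group held 2 libraries, and the labels do not say which floxed or Cre alleles the WT animals carried, whether animals were pooled, or whether a replicate is a separate animal. P-values therefore measure only the spread between these libraries, which may be technical.

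The cultures are titled R40D3 or R0D3. All 8 were labelled as osteoclast differentiation, and the protocol names 3 days with L929 supernatant equal to 20 ng/ml of M-CSF, a macrophage growth factor, followed by 40 ng/ml of RANKL, the cytokine that drives osteoclast formation. That R40 and R0 stand for RANKL doses is inferred from this protocol and is not spelled out in the labels. In these libraries the titles separated cultures with high and with low levels of osteoclast genes. The 13 osteoclast markers, Ctsk, Acp5 and Calcr among them, summed to between 14335 and 40827 CPM (counts scaled to the size of each library) at R40D3 and between 1040 and 1225 CPM at R0D3, where Calcr had no count in any library.

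Mitochondrial biogenesis draws on gene products of the nucleus and of the mitochondrial genome. The coactivators PGC-1alpha (Ppargc1a) and PGC-1beta (Ppargc1b) do not bind DNA themselves but act through partners such as the nuclear receptor ERRalpha (Esrra) and the factor NRF1 (Nrf1), which bind genes of respiration and of the mitochondrial DNA machinery. Inside the organelle TFAM coats the mitochondrial DNA and starts transcription with TFB2M and the RNA polymerase POLRMT, TFB1M methylates a ribosomal RNA, and POLG is the catalytic subunit of the DNA polymerase. Osteoclasts are rich in mitochondria, and PGC-1beta is the coactivator best known from work on their formation.

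RefSeq start-site windows (GRCm38.p6, 250 bases before to 50 after the start) matched 8 of the 9 members by symbol and gave 9 windows, since Nrf1 had 2. Ppargc1b had no window, so no sequence statement below covers it. Windows are shown for Esrra, which rose in the cultures, for Tfam, Polrmt and Tfb2m, the mitochondrial transcription apparatus, and for Ppargc1a, which was all but uncounted in the cultures. Each is the run of 250 bases before the start, read 5′ to 3′ on the gene's strand, except that of Tfb2m, which is a stretch of 30 bases around the match. Capitals mark GCATGCGC (the core NRF1 sequence), CCGGAAG (an ETS and GABP sequence) or TGACGTG (a variant of the cyclic AMP response element), on either strand.
Esrra chr19:6921809-6922058 minus strand: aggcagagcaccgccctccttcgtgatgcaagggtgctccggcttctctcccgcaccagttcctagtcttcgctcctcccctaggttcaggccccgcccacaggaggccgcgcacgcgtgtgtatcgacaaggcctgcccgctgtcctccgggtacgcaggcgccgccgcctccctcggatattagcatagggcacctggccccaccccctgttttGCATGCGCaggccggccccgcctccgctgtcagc
Polrmt chr10:79746582-79746831 minus strand: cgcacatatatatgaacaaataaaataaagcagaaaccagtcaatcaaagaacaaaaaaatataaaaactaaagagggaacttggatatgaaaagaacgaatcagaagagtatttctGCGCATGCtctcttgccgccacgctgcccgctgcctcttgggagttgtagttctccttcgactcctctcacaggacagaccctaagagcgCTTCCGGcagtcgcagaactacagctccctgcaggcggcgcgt
Tfam chr10:71238045-71238294 minus strand: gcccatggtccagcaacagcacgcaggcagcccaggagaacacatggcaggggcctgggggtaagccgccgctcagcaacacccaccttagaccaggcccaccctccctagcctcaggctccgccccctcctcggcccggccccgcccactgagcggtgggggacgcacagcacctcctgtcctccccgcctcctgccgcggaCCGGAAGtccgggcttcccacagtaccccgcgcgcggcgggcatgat
Ppargc1a chr5:51567726-51567975 minus strand: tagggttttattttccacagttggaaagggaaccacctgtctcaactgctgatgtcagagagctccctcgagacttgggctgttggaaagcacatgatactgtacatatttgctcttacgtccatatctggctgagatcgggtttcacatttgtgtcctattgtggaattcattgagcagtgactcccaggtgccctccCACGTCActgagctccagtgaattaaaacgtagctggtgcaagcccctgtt
Tfb2m chr1:179546245-179546274 minus strand: ctaggtcgttcGCATGCGCcattcgtaatg

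The NRF1 core was present in 3 of the 9 windows, at -34 in Esrra, -133 in Polrmt and 14 in Tfb2m, counted from the start site, against 2.71% of the 32851 mouse windows searched. The longer NRF1 palindrome, which contains the core in 1 of its forms, occurred in Polrmt alone among the members and in 4.60% of all windows. CCGGAAG was present in 3 windows, at -38 in Polg, -43 in Polrmt and -47 in Tfam, against 8.86% of all. TGACGTG occurred at -51 in Ppargc1a and in 2.01% of all windows. No member window held AAGGTCA (the ERR core), TGACGTCA (the full cyclic AMP response element) or TGANTCA (the AP-1 sequence), which were in 4.72%, 1.79% and 7.81% of all windows, while GGGCGG (the Sp1 box) was in 6 member windows and in 35.7% of all. Both strands were searched. These are matches of letters in a fixed window and were not tested against binding. The shares of all windows were not matched to the members for base composition, on which matches to GC-rich sequences depend.

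The member windows also differed in base composition. GC content was 70.3% in Tfam, 67.3% in Tfb2m, 66.0% in Esrra, 60.0% in Tfb1m, 59.3% in Polg and 52.0% in Polrmt, with 16 to 32 CpG dinucleotides each. Ppargc1a had 48.7% GC and 5 CpG. The 2 Nrf1 windows stood far apart, at 77.0% with 43 CpG and 46.3% with 2. The median of all windows was 52.7% and 7.

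In GRCm38 all 9 are protein-coding genes on different loci. Ppargc1a (ENSMUSG00000029167) lies on chromosome 5 from 51454250 to 51567726, and Ppargc1b (ENSMUSG00000033871) on chromosome 18 from 61298136 to 61400431. Esrra (ENSMUSG00000024955) lies on chromosome 19 from 6910977 to 6921813, and Nrf1 (ENSMUSG00000058440) on chromosome 6 from 30047988 to 30153458. Tfam (ENSMUSG00000003923) and Polrmt (ENSMUSG00000020329) lie on chromosome 10, from 71225464 to 71238280 and from 79736123 to 79746581. Tfb1m (ENSMUSG00000036983) lies on chromosome 17 from 3519256 to 3557781, Tfb2m (ENSMUSG00000026492) on chromosome 1 from 179528055 to 179546267, and Polg (ENSMUSG00000039176) on chromosome 7 from 79446231 to 79466362. Nrf1 is on the plus strand and the other 8 are on the minus strand. The use of strand in counting is not given in the sources used here, and exons of 3 members overlap genes on the opposite strand: Polg shares 921 bases (8.57% of its exons) with Fanci, Tfb1m shares 142 bases (3.94%) with Tiam2, and Esrra shares 73 bases (1.66%) with Trmt112. Reads in these stretches could belong to either gene.

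Total counts ran from 28892215 to 69466572 in the 4 forelimb libraries and from 16009146 to 19221865 in the 8 culture libraries. Levels are given in CPM with library sizes scaled by the trimmed mean of M-values. Impdh2 remained at 0.301 of its WT mean in LysM-cKO cultures at R40D3 and 0.285 at R0D3, and at 0.693 in Prx-cKO forelimbs. The first of these differences had an edgeR adjusted p of 0.0386 and the second of 0.0324, while the forelimb difference did not pass (edgeR adjusted p 0.443). Each forelimb genotype combined a library with Xist and no Ddx3y counts and a library with Ddx3y and few Xist counts. Stromal fibroblast markers, 10 genes, summed to 444 and 519 CPM in the second-numbered LysM-cKO libraries and to between 1249 and 1679 CPM in the other 6 cultures, so culture results are also given without those 2 libraries where they change.

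Compared per length, as CPM per kilobase of merged exons, the order of the members differed between forelimb and culture. In WT forelimb Tfam stood first at 17.3 ± 2.14 (SD, n = 2), followed by Polrmt at 8.98 ± 0.244 and Tfb2m at 7.22 ± 0.351. Polg (5.46 ± 1.32), Tfb1m (4.63 ± 0.534), Esrra (4.37 ± 0.834) and Nrf1 (4.15 ± 0.599) came next, and the libraries of each neighbouring pair in this run overlapped. The coactivators were lowest, Ppargc1a at 1.23 ± 0.245 and Ppargc1b at 0.643 ± 0.324, with no overlap between them. Forelimb Tfam was thus well above every other member in both of its WT libraries. With the longest transcript in place of merged exons, Nrf1 moved from the seventh to the second place in WT forelimb, since its merged exons span 10282 bases and its longest transcript 4042; Tfam stayed first and the coactivators last.

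In the cultures Esrra stood first in all 4 groups. Its level per kilobase was 11.4 ± 0.661 in WT and 10.7 ± 0.518 in LysM-cKO at R0D3, and 21.9 ± 3.58 and 18.3 ± 3.82 at R40D3 (SD, n = 2). Ppargc1b moved within the order: it was eighth of 9 at R0D3, at 0.499 ± 0.265 in WT and 0.553 ± 0.0523 in LysM-cKO, and second at R40D3, at 9.22 ± 0.351 and 7.23 ± 2.17. In WT at R40D3 the Ppargc1b libraries lay above those of Tfam (5.86 ± 0.00413), whereas in LysM-cKO the Ppargc1b and Tfam libraries overlapped. Tfb2m, Polg and Polrmt lay between 3.55 and 5.09 per kilobase in every culture group, with Nrf1 (2.26 to 2.82) and Tfb1m (1.17 to 1.57) below them on group means. On the longest-transcript scale Esrra stayed first in all 4 groups, and Ppargc1b stayed second at R40D3 and eighth at R0D3, while Nrf1 moved up to the third place in 3 of the 4 groups and the fifth in R40D3 LysM-cKO.

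**Figure D1:**
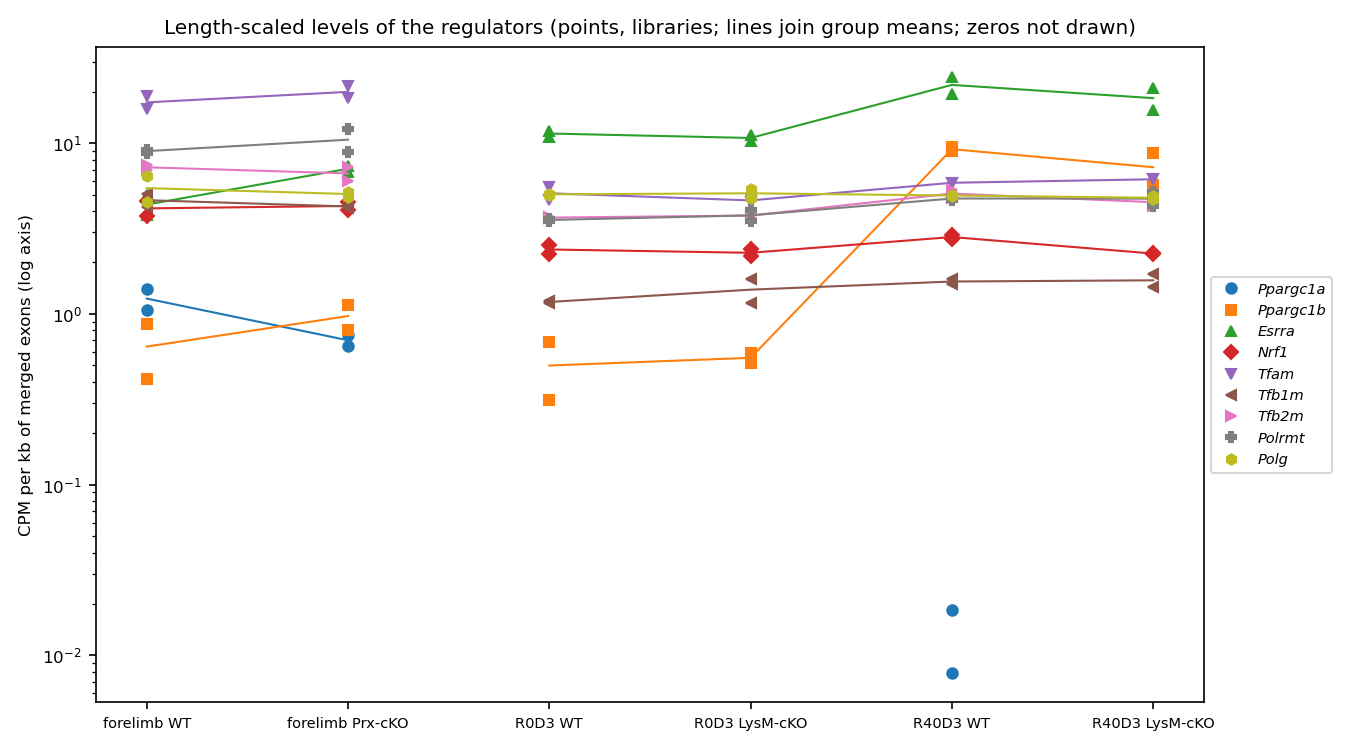
Level of each regulator in CPM per kilobase of merged exons (log axis) in the 2 forelimb and 4 culture groups; points are libraries, lines join group means, and libraries at 0 are not drawn. Tfam is highest in forelimb (17.3 in WT) and Esrra in every culture group, and Ppargc1b goes from 0.499 at R0D3 to 9.22 at R40D3 in WT.

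Ppargc1a, the coactivator known from muscle, brown fat and liver, reached 3 counts in the forelimb libraries only. It had 295 and 664 counts in the WT forelimb libraries and 143 and 218 in Prx-cKO. In the cultures it had 0 counts in 6 libraries and 1 and 2 counts in the R40D3 WT libraries, below the floor of 3 counts, which corresponds to between 0.156 and 0.187 CPM per culture library. It did not pass the low-count filter there and was not tested, so the culture comparisons below concern the other 8 members.

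The first comparison asked what differed between R40D3 and R0D3 in WT cultures. Ppargc1b rose 18.3-fold and Esrra 1.93-fold on the fitted scale, and no other member passed the test. Ppargc1b was at 2.74 and 1.24 CPM at R0D3 and at 35.8 and 37.8 CPM at R40D3. Esrra was at 47.9 and 52.0 CPM at R0D3 and at 85.1 and 107 CPM at R40D3. Both R40D3 libraries lay above both R0D3 libraries for each gene, and the lower R0D3 value of Ppargc1b, in replicate 2, rested on 20 counts. The log2 fold change was 4.19 for Ppargc1b (SE 0.33, edgeR quasi-likelihood adjusted p 0.000506) and 0.95 for Esrra (SE 0.17, edgeR adjusted p 0.00873). These 2 of the 8 members tested passed, beside 16.9% of all 14030 genes (2366). The Ppargc1b value ran from 3.75 without R0D3 WT replicate 2 to 4.88 without R0D3 WT replicate 1. Ppargc1b ranked 64th by p among all genes and Esrra 910th.

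Polrmt, the mitochondrial RNA polymerase, was at 16.5 and 16.8 CPM at R0D3 and 21.9 and 22.5 at R40D3 in WT. Tfb2m, its partner in promoter opening, was at 10.3 CPM in both R0D3 libraries and at 15.0 and 13.4 at R40D3. The groups did not overlap for either gene, and neither passed: the log2 fold change was 0.42 for Polrmt (SE 0.14, edgeR adjusted p 0.0796) and 0.47 for Tfb2m (SE 0.14, edgeR adjusted p 0.0541). With the replicate number as a block, same-numbered culture libraries were treated as pairs. Both genes then passed (edgeR adjusted p 0.0232 and 0.0316), so that 4 of 8 members did, beside 28.3% of all genes (3977).

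Tfam, the packaging protein, was at 20.5 and 24.7 CPM at R0D3 and 26.0 in both R40D3 libraries, a fitted log2 difference of 0.21 (SE 0.12, edgeR adjusted p 0.292). Tfb1m, the ribosomal RNA methyltransferase, was at 4.19 and 4.29 CPM and at 5.80 and 5.37 (log2 fold change 0.40, SE 0.22, edgeR adjusted p 0.285). Nrf1 was at 23.0 and 26.0 CPM and at 29.8 and 28.2 (log2 fold change 0.24, SE 0.11, edgeR adjusted p 0.186). None of these 3 passed with or without the block. Polg, the DNA polymerase, was nearly level, at 53.5 and 54.2 CPM at R0D3 and 53.3 and 52.8 at R40D3, with a log2 fold change of -0.023 (SE 0.092). The libraries of the groups did not overlap for 8 of the 8 members, as they did not for 62.0% of all genes, and the median log2 fold change was 0.41 for the members and 0.0098 for all genes.

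**Figure D2:**
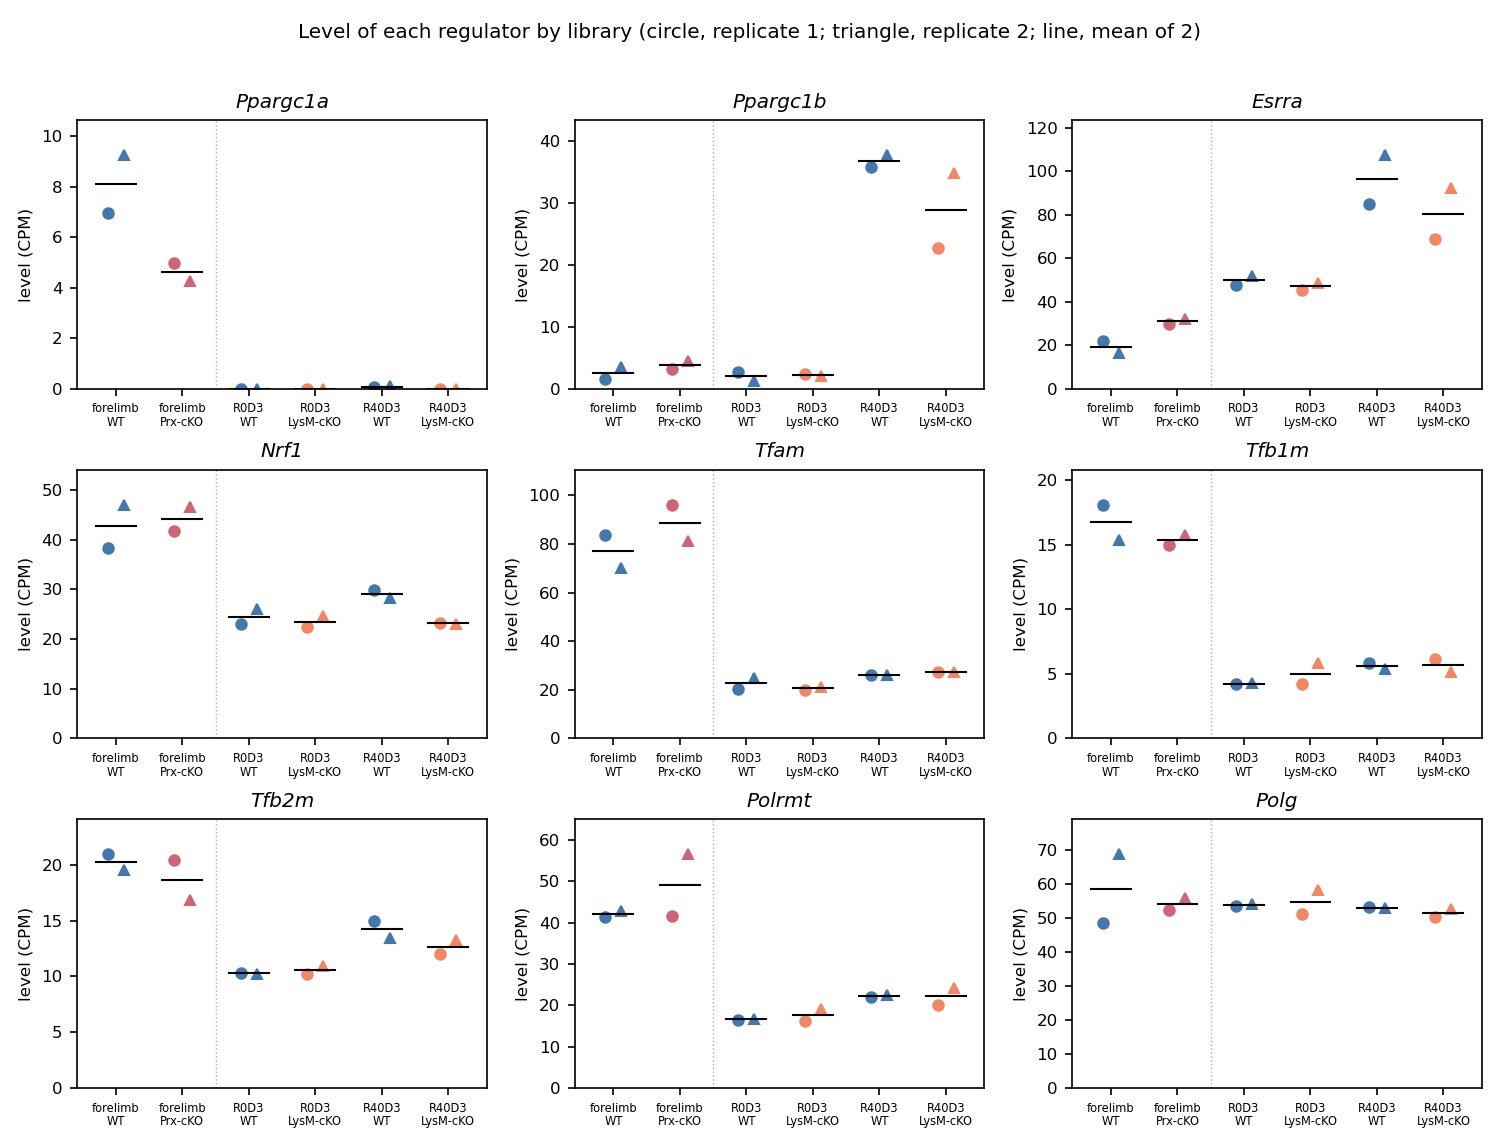
CPM of the 9 regulators in each library (circles, replicate 1; triangles, replicate 2; lines, mean of 2) for forelimb WT and Prx-cKO and for WT and LysM-cKO cultures at R0D3 and R40D3. Ppargc1b lies between 1.24 and 2.74 CPM in the R0D3 cultures and between 22.7 and 37.8 CPM at R40D3, and Ppargc1a is near 0 in every culture.

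In LysM-cKO cultures Ppargc1b and Esrra were again the members that passed, 13.0-fold and 1.71-fold higher at R40D3. Ppargc1b was at 2.35 and 2.06 CPM at R0D3 and 22.7 and 35.0 at R40D3, a fitted log2 difference of 3.70 (SE 0.32, edgeR adjusted p 0.00115). Esrra was at 45.4 and 48.6 CPM and at 68.6 and 92.3, a fitted log2 difference of 0.77 (SE 0.17, edgeR adjusted p 0.0279). R40D3 replicate 1 was the lower library for both genes, and the groups stayed apart. These were again 2 of 8 members, beside 10.1% of all genes (1422). The Esrra call rested on single libraries: the edgeR adjusted p was 0.158 without R40D3 LysM-cKO replicate 2, 0.133 and 0.111 without R0D3 LysM-cKO replicates 1 and 2, 0.0590 and 0.0587 without R0D3 WT replicates 1 and 2, and 0.251 without both LysM-cKO replicate 2 libraries. In WT the Esrra adjusted p was 0.0919 without R40D3 WT replicate 2, 0.0796 without R0D3 WT replicate 1 and 0.0580 without R0D3 WT replicate 2. Ppargc1b passed in every alternative run, with edgeR or DESeq2 adjusted p up to 0.00991 in WT and 0.0159 in LysM-cKO.

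Tfam in LysM-cKO cultures was at 20.0 and 21.0 CPM at R0D3 and 27.2 and 27.3 at R40D3, a fitted log2 difference of 0.41 (SE 0.12, edgeR adjusted p 0.0711, and 0.0240 with the replicate block). It was the third member to pass with the block, beside 21.3% of all genes (2982). Polrmt was at 16.3 and 19.1 CPM and at 20.1 and 24.3 (log2 fold change 0.32, edgeR adjusted p 0.200), and Tfb2m at 10.2 and 10.9 and at 11.99 and 13.3 (0.26, edgeR adjusted p 0.308); the groups were apart for each. For Tfb1m, Nrf1 and Polg the libraries of the groups overlapped, with log2 fold changes of 0.19, -0.015 (0.019 with library size alone as the scaling) and -0.087. The groups were apart for 5 of the 8 members and for 49.8% of all genes, and the members' median was 0.29 against 0.0093 for all genes.

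Because same-numbered culture libraries were taken as pairs, which the labels do not state, each ratio was also read within a pair. Ppargc1b at R40D3 was 13.1 times its R0D3 level in the WT pair of replicate 1 and 30.4 times in that of replicate 2, and 9.65 and 17.0 times in the LysM-cKO pairs. Esrra was 1.78 and 2.06 times in WT and 1.51 and 1.90 times in LysM-cKO. Polrmt (1.33 and 1.34 in WT, 1.23 and 1.27 in LysM-cKO) and Tfb2m (1.46 and 1.31, then 1.17 and 1.22) were higher at R40D3 in all 4 pairs. Tfam was too, at 1.27 and 1.05 times in the WT pairs and 1.36 and 1.30 times in those of LysM-cKO. The summed osteoclast markers were 22.8 and 37.6 times higher in the WT pairs and 12.7 and 25.4 times in the LysM-cKO pairs, and all 13 passed in both genotypes. Their part in the member results was not tested; in bulk cultures more cells of a type and more RNA per cell cannot be told apart. The summed macrophage markers, 12 genes, were 0.717 and 0.636 of the R0D3 sum in the WT pairs and 0.860 and 0.734 in the LysM-cKO pairs, with 2 of 12 called lower in each genotype.

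**Figure D3:**
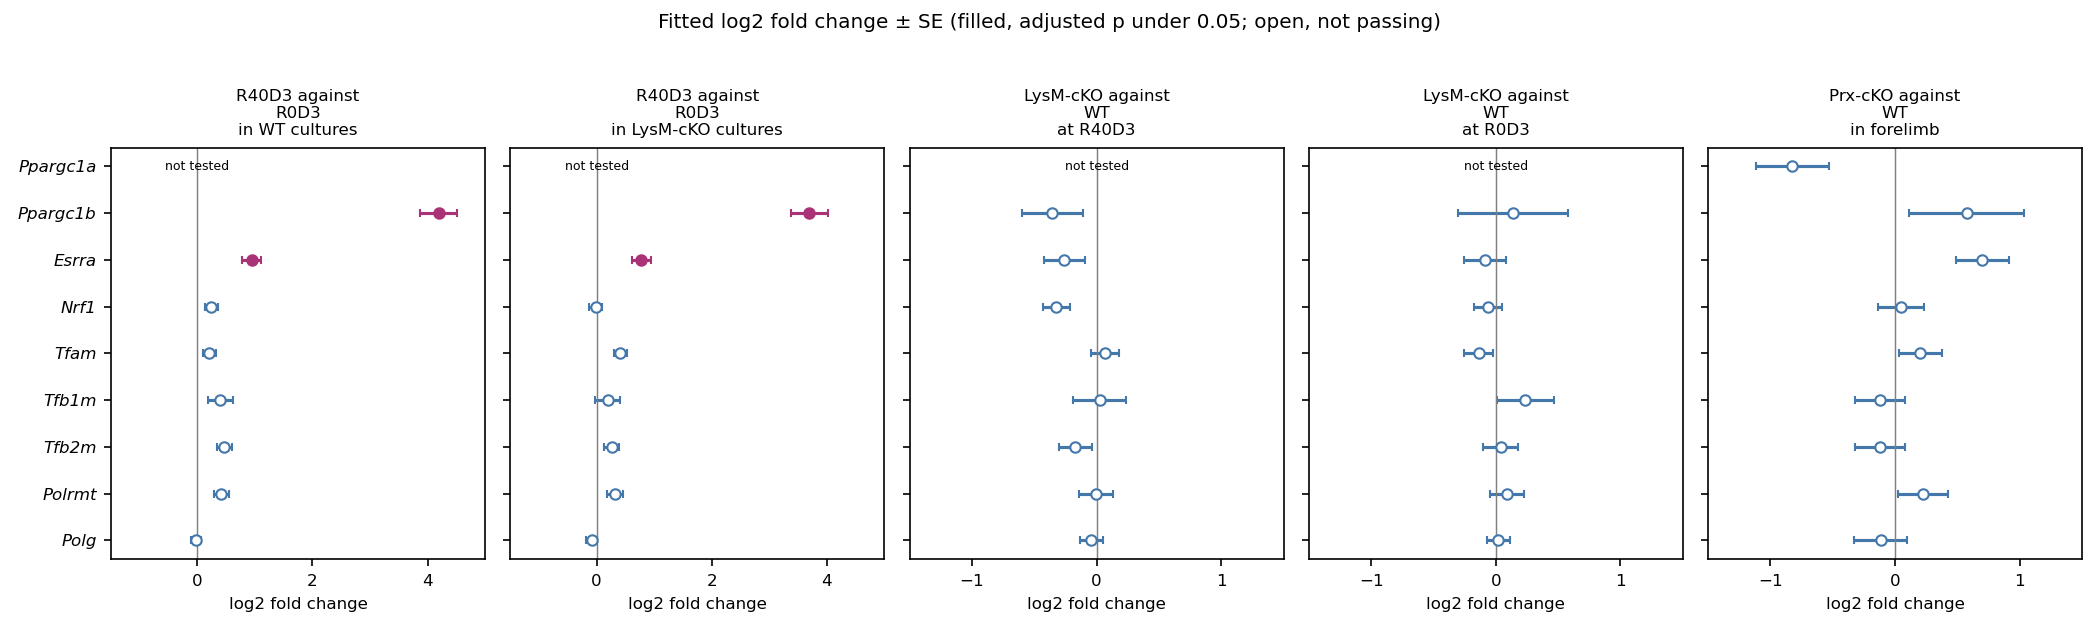
Fitted log2 fold change of each regulator with its standard error in the 5 comparisons (filled points passed at an edgeR adjusted p under 0.05; the scales of the R40D3 against R0D3 panels are wider than the others). Ppargc1b (4.19 in WT, 3.70 in LysM-cKO) and Esrra (0.95 and 0.77) are the only filled points, and Ppargc1a was not tested in the cultures.

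The genes around the regulators were grouped in 9 lists, chosen with earlier results of these data known, and called members are counted here. Whether the regulators act on the listed genes in these cultures was not tested. At R40D3 against R0D3 in WT, 19 of 24 tested target genes of PGC-1 and ERR factors rose and none fell, with a median log2 fold change of 1.16 beside 0.0098 for all genes, of which 11.4% rose. Citric acid cycle enzymes were among them: Mdh2, malate dehydrogenase, went from 106 ± 7.06 to 522 ± 89.1 CPM (log2 fold change 2.30), and Idh3a, an isocitrate dehydrogenase subunit, from 32.3 ± 1.11 to 134 ± 17.8 CPM (2.05), each mean ± SD with n = 2. The edgeR adjusted p was 0.0011 for Mdh2 and 0.000993 for Idh3a. In LysM-cKO 15 of the 24 rose (median 0.91), against 6.99% of all genes. Mdh2 (1.75, edgeR adjusted p 0.00475), Idh3a (1.59, edgeR adjusted p 0.00395) and Slc25a4, the adenine nucleotide carrier (0.91, edgeR adjusted p 0.00519), had the smallest p. Without R0D3 WT replicate 1, or without R40D3 WT replicate 2, 9 target genes rose in WT. In LysM-cKO 5 rose without R0D3 replicate 1, and 6 without either replicate 2 library of that genotype or without both.

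Partners of the coactivators did not move one way. In WT 4 of 28 rose and 4 fell, where 11.4% of all genes rose and 5.51% fell. Perm1, a muscle-type regulator downstream of PGC-1 and ERR factors, rose from 2.83 ± 0.216 to 20.3 ± 3.45 CPM (log2 fold change 2.84, edgeR adjusted p 0.00299). Pprc1, the third member of the coactivator family, rose from 28.8 ± 2.03 to 39.9 ± 1.78 CPM (0.47, edgeR adjusted p 0.0166). Pparg, a nuclear receptor that PGC-1 proteins coactivate, fell from 49.9 ± 7.09 to 25.7 ± 2.91 CPM (-0.95, edgeR adjusted p 0.00521). The other called partners, named after their values were seen, were Ppara and Sirt3 (higher) and Creb1, Mef2c and Tfeb (lower). In LysM-cKO Perm1 rose (1.91, edgeR adjusted p 0.0174) and Pparg fell (-1.30, edgeR adjusted p 0.00311). These were the only 2 of 28 called, where 6.99% of all genes rose and 3.15% fell. With 1 library left out, 1 to 4 partners rose and 1 to 5 fell in WT. The lowest counts, 1 each way, came without either R0D3 WT library or R40D3 WT replicate 2, and 2 rose without R40D3 WT replicate 1. In LysM-cKO 0 rose without R0D3 LysM-cKO replicate 1 or either replicate 2 library of that genotype, and 2 fell without R40D3 LysM-cKO replicate 1.

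Of the genes that keep and copy mitochondrial DNA, 4 of 17 rose in WT, beside 11.4% of all genes: Atad3a, a nucleoid-associated ATPase (1.16, edgeR adjusted p 0.0021), Poldip2 (0.96, edgeR adjusted p 0.00398), the nuclease Endog (1.70, edgeR adjusted p 0.0189) and, named after its value was seen, the protease Lonp1. In LysM-cKO 3 of 17 rose, beside 6.99% of all genes: Atad3a (0.89), Poldip2 (0.69) and Lonp1 (0.63), with edgeR adjusted p of 0.00938, 0.0212 and 0.0258. Among 7 cofactors of mitochondrial transcription, Mrpl12, which binds POLRMT, rose in both genotypes (1.10 in WT and 0.91 in LysM-cKO, edgeR adjusted p 0.00798 and 0.0247). Mterf2, a transcription termination factor relative, rose in WT from a low level, 0.485 ± 0.192 to 1.34 ± 0.172 CPM (edgeR adjusted p 0.0476). Of 10 genes of deoxynucleotide supply 1 rose in each genotype. These counts rested on single libraries. Without R40D3 WT replicate 2, 1 of the 17 DNA genes rose in WT, and without R0D3 WT replicate 1, 2 did. In LysM-cKO 0 did without R0D3 LysM-cKO replicate 1 or either replicate 2 library of that genotype, and 1 did without R0D3 WT replicate 1. With any 1 library left out, 0 to 1 cofactors rose in each genotype.

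Of 20 genes of mitochondrial RNA processing 10 rose in WT and 8 in LysM-cKO, beside 11.4% and 6.99% of all genes, with medians of 0.49 and 0.46. Lrpprc, which stabilises mitochondrial messenger RNA, went from 59.5 ± 1.63 to 101 ± 4.06 CPM in WT (0.76, edgeR adjusted p 0.0038) and from 61.3 ± 3.98 to 95.3 ± 11.4 CPM in LysM-cKO (0.63, edgeR adjusted p 0.0116). Of 26 import and folding genes 14 rose in WT and 9 in LysM-cKO, with medians of 0.61 and 0.34. The chaperone Hspd1 (0.96 and 0.74, edgeR adjusted p 0.0012 and 0.00525) and the receptor Tomm70a (0.82 and 0.73, edgeR adjusted p 0.00136 and 0.00344) were among the smallest p in both genotypes. Of 10 fusion and fission genes 4 rose in WT and 2 in LysM-cKO, with the fusion proteins Mfn2 (0.90 and 0.56) and Opa1 (0.75 and 0.56) called in both. No gene of these 3 lists fell. These counts rested on few libraries: with 1 library left out, 4 to 11 RNA processing and 2 to 14 import genes rose in WT, lowest without R40D3 WT replicate 2. In LysM-cKO 0 to 10 and 2 to 9 rose, lowest without R0D3 LysM-cKO replicate 1, and 0 of either list without both LysM-cKO replicate 2 libraries. Fusion and fission genes that rose were 1 to 4 in WT, lowest without R40D3 WT replicate 2, and 0 to 2 in LysM-cKO, with 0 without R0D3 LysM-cKO replicate 1 or either replicate 2 library of that genotype.

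All 13 protein-coding transcripts of the mitochondrial genome were higher on the fitted value in both genotypes, beside 51.2% of all genes in each. Their medians were 0.61 in WT and 0.49 in LysM-cKO, yet few passed. In WT 3 did, where 11.4% of all genes passed as higher: mt-Nd1 (0.67, edgeR adjusted p 0.0138), mt-Cytb (0.76, edgeR adjusted p 0.0265) and mt-Nd2 (0.57, edgeR adjusted p 0.0306). In LysM-cKO 0 did in edgeR, where 6.99% of all genes passed as higher, and 6 did with the replicate block, as did 8 in WT. The WT count was 0 when any 1 WT library was left out and 6 without R0D3 LysM-cKO replicate 2. The share of all counts on these genes was 2.36% to 2.79% in the R40D3 libraries and 1.67% to 2.03% in the R0D3 libraries, with no overlap. With the block 18 import genes rose in WT and 15 in LysM-cKO, and target genes that rose were 19 in WT, as without it, and 20 in LysM-cKO, beside 16.7% and 13.0% of all genes higher.

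**Figure D4:**
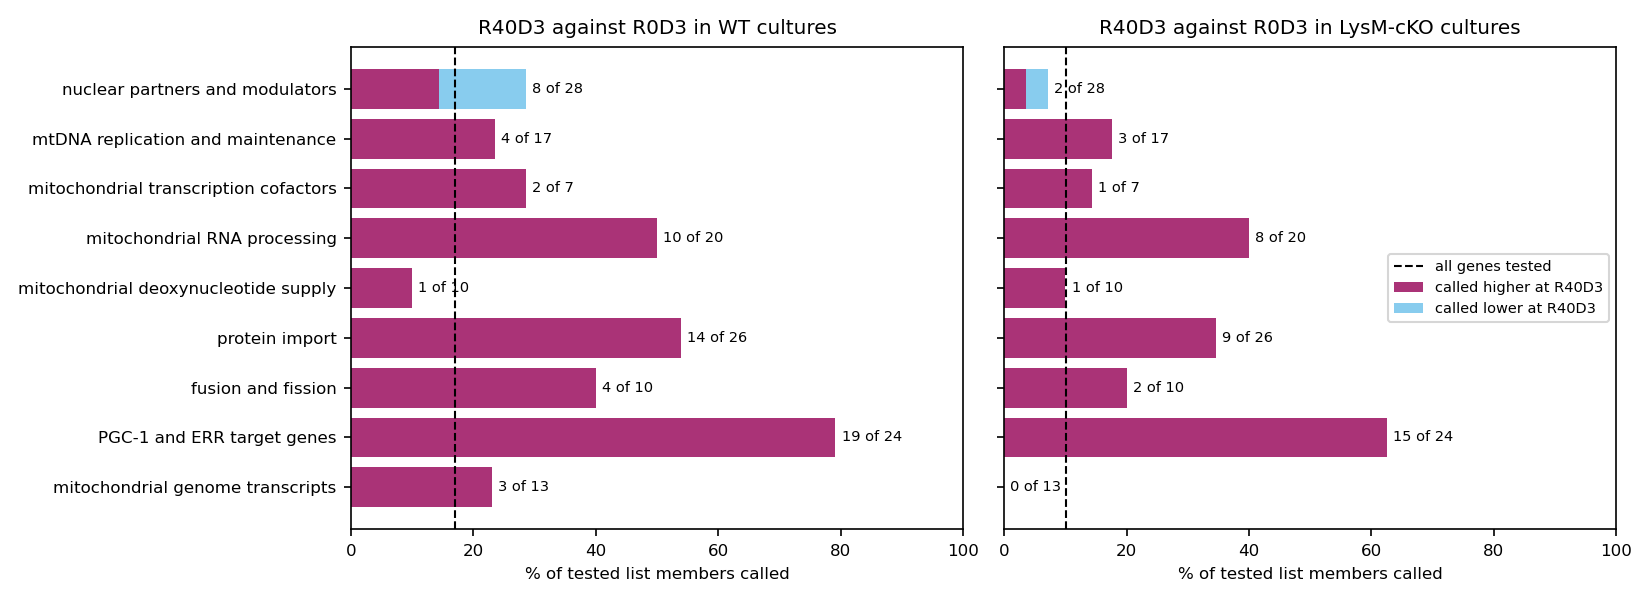
Percentage of each list's tested genes called higher (purple) or lower (light blue) at R40D3 against R0D3 in WT and LysM-cKO cultures, with the count beside each bar; the dashed line is the share of all genes tested that was called (16.9% and 10.1%). The target genes of PGC-1 and ERR factors have the longest bars, 19 of 24 and 15 of 24, and the partners are the only list with genes called lower.

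Ppargc1b and Esrra followed a shared course over the 8 cultures, with a Pearson r of 0.933 between their log2 CPM, given as a description since the libraries fall into 2 sets. By the same measure Ppargc1b had r of 0.925 with Tfb2m, 0.899 with Polrmt, 0.786 with Tfam, 0.643 with Tfb1m, 0.395 with Nrf1 and -0.430 with Polg. Of 9697 genes ranked, 2 of the 3 most like Ppargc1b were Jarid2, a chromatin factor (0.9984), and Itgb3, the osteoclast integrin (0.9978). Itgb3 is on the osteoclast marker list and went from a mean of 12.1 to 639 CPM in WT. Those most like Esrra were Nop10, a small nucleolar protein (0.9995), Uqcr10, a complex III subunit (0.9990), and Pabpc4, a poly(A)-binding protein (0.9989). Uqcr10 went from 63.4 to 169 CPM in WT.

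The second culture question was what Impdh2 deletion changed among the regulators. At R40D3 none of the 8 members tested passed (0 of 8), and 0.0143% of all genes did (2); 1 member had an unadjusted p under 0.05, as did 7.46% of genes. Nrf1 was that member, at 29.8 and 28.2 CPM in WT and 23.3 and 23.1 in LysM-cKO. Both LysM-cKO libraries lay below both WT libraries, with a fitted log2 difference of -0.32 (SE 0.11, edgeR adjusted p 0.647, and 0.170 with the replicate block). The difference did not pass. Nrf1 in LysM-cKO was 0.782 of WT in the pair of replicate 1 and 0.819 in that of replicate 2.

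Ppargc1b at R40D3 was at 35.8 and 37.8 CPM in the WT libraries and 22.7 and 35.0 in LysM-cKO, a fitted log2 difference of -0.35 (SE 0.24, edgeR adjusted p 0.699). The spread lay in LysM-cKO: the log2 fold change was -0.049 without its replicate 1 and -0.71 without its replicate 2, and the ratio was 0.635 in one pair and 0.926 in the other. Esrra was at 85.1 and 107 CPM and at 68.6 and 92.3, with overlapping groups (-0.26, SE 0.16, edgeR adjusted p 0.688) and ratios of 0.806 and 0.860 within the pairs. The summed osteoclast markers were 0.514 and 0.648 of WT in the same pairs with 0 of 13 higher on the fitted value and 0 called. The macrophage sum was 0.796 and 0.694 of WT in these pairs, and the stromal fibroblast sum 0.888 and 0.277. The median log2 fold change of the 12 macrophage markers was -0.097, with 4 higher and 0 called, so their sum does not stand for every marker. That sum includes Lyz2, the LysM gene itself, and cannot be read as macrophage content between these genotypes. The part of these markers in the member values was not tested.

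For the members of the mitochondrial machinery no difference between the genotypes passed at R40D3. Log2 fold changes were 0.068 for Tfam, 0.026 for Tfb1m, -0.17 for Tfb2m, -0.0046 for Polrmt (0.034 with library size alone) and -0.044 for Polg, with SE between 0.092 and 0.21. Groups were apart for 5 of the 8 members and for 38.7% of all genes. The members' median was -0.11, and that of all genes -0.0077. Among the lists 0 genes passed. In edgeR 3 of 24 target genes of PGC-1 and ERR factors had an unadjusted p under 0.05. So did 3 of 26 import genes and 4 of 28 partners, with 0 or 1 in each other list, beside 7.46% of all genes. Of the 24 target genes 3 were higher (median -0.31), and of the 26 import genes 1 was (median -0.15), where 48.5% of all genes were higher. Mdh2 was at 522 ± 89.1 CPM in WT and 361 ± 107 CPM in LysM-cKO (edgeR adjusted p 0.647, 0.0828 with the block).

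At R0D3 no member passed (0 of 8, beside 0.0143% of all genes, 2), none had an unadjusted p under 0.05 (4.41% of all genes did), and the groups were apart for 0 of 8 (32.3% of all genes). Ppargc1b was at 2.74 and 1.24 CPM in the WT libraries and 2.35 and 2.06 in LysM-cKO, and its log2 fold change of 0.14 (SE 0.44) ran from -0.31 without WT replicate 2 to 0.83 with replicate 1 left out instead. Esrra was at 47.9 and 52.0 CPM and at 45.4 and 48.6 (-0.087, SE 0.17). The other 6 lay between -0.14 (Tfam) and 0.24 (Tfb1m), and the members' median was 0.030. Whether the step from R0D3 to R40D3 differed between genotypes was tested as an interaction: no member passed (0 of 8) and 0.0% of all genes did, with 0 members and 247 genes (1.76%) at an unadjusted p under 0.05. The interaction was -0.49 for Ppargc1b (SE 0.50) and -0.17 for Esrra (SE 0.23). The Ppargc1b value ran from -1.18 without R0D3 WT replicate 1 to -0.046 without R0D3 WT replicate 2. A difference between the genotypes in the rise of either gene was therefore not detected, at standard errors as large as these.

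The forelimb comparison asked what Impdh2 deletion changed in the limb bud. No member of 9 passed (0), and no gene of 19987 did (0.0%); 2 members had an unadjusted p under 0.05, as did 10.5% of genes (2095). Esrra and Ppargc1a were those members, and they lay on opposite sides. Esrra was at 21.7 and 16.6 CPM in the WT libraries and at 29.9 and 32.3 in Prx-cKO, a fitted log2 difference of 0.70 (SE 0.21, edgeR adjusted p 0.444). Ppargc1a was at 6.96 and 9.25 CPM in the WT libraries and at 4.97 and 4.26 in Prx-cKO, a fitted log2 difference of -0.82 (SE 0.29, edgeR adjusted p 0.466). Both Prx-cKO libraries lay above both WT libraries for Esrra and below them for Ppargc1a, which holds for 43.2% of all genes in one direction or the other. Leaving out 1 library kept the sign of both, between 0.52 and 0.87 for Esrra and between -1.04 and -0.59 for Ppargc1a. DESeq2 called 390 genes in this comparison and no member (0).

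Ppargc1b, the lower of the coactivators in WT forelimb, was at 1.65 and 3.48 CPM in the WT libraries and 3.23 and 4.52 in Prx-cKO, on 70 to 250 counts, with overlapping groups (0.58, SE 0.46). Its log2 fold change ran from 0.14 without WT replicate 1 to 1.25 with replicate 2 left out instead. The coactivators changed places per kilobase: Ppargc1b stood at 0.971 ± 0.228 and Ppargc1a at 0.701 ± 0.0757 in Prx-cKO (SD, n = 2). Tfam, the highest member, was at 83.6 and 70.2 CPM in the WT libraries and 96.1 and 81.2 in Prx-cKO (0.20, SE 0.18). Polrmt was at 41.3 and 42.9 CPM and at 41.6 and 56.5, and its log2 fold change of 0.22 (SE 0.20) was -0.012 without Prx-cKO replicate 2. Nrf1 (0.048, and -0.051 with library size alone), Tfb1m (-0.12), Tfb2m (-0.12) and Polg (-0.12) had overlapping groups. The members' median was 0.048 and that of all genes -0.030.

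The surrounding lists held no called gene in the forelimb either (0 in each of the 9 lists in edgeR). Without WT replicate 1, 2 import genes, 1 target gene and 1 gene of deoxynucleotide supply were called higher, and without WT replicate 2, 1 partner was. Of 25 target genes of PGC-1 and ERR factors 22 were higher in Prx-cKO (median 0.42), with 12 at an unadjusted p under 0.05, where 47.2% of all genes were higher and 10.5% were under that p; Slc25a4 was at 365 ± 38.7 CPM in WT forelimbs and at 784 ± 41.5 in Prx-cKO (edgeR adjusted p 0.332). All 26 import genes were higher on the fitted value (median 0.34, 9 at an unadjusted p under 0.05), such as Tomm40, the outer-membrane channel, at 97.9 ± 7.62 and 149 ± 13.0 CPM (edgeR adjusted p 0.416). All 13 mitochondrially encoded transcripts were lower (median -0.29, 3 at an unadjusted p under 0.05), such as mt-Nd3 at 410 ± 64.7 and 259 ± 13.4 CPM (edgeR adjusted p 0.424). Their share of all counts was 3.64% and 2.73% in the WT libraries and 2.94% and 2.27% in Prx-cKO, so the groups overlapped. Esrrg, a relative of Esrra, was low and at 2.53 ± 0.837 CPM in WT forelimbs and at 0.876 ± 0.187 in Prx-cKO (edgeR adjusted p 0.443).

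Summed markers of the 5 cell types below differed between the forelimb genotypes, with no marker called. Those of osteoclasts, erythroid cells and surface ectoderm overlapped between the genotypes, while those of stromal fibroblasts and nerve did not. Skeletal muscle markers, 15 genes, summed to 478 and 456 CPM in WT and to 1254 and 569 CPM in Prx-cKO, with 14 of 15 higher. Chondrogenic markers, 10 genes, summed to 986 and 1120 CPM in WT and to 445 and 368 CPM in Prx-cKO, with 0 of 10 higher. Limb mesenchyme markers, 10 genes, summed to 1646 and 1711 CPM in WT and to 1281 and 1352 CPM in Prx-cKO, with 4 of 10 higher (median -0.17). Macrophage markers, 12 genes, summed to 114 and 117 CPM in WT and to 152 and 139 CPM in Prx-cKO, with 10 of 12 higher. Endothelial markers, 8 genes, summed to 155 and 159 CPM in WT and to 213 and 216 CPM in Prx-cKO, with 8 of 8 higher. No marker of these 5 lists was at 0 in a forelimb group, and 0 passed the adjusted threshold in edgeR. Their part in the values of Esrra, Ppargc1a and the lists was not tested.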

How the data were processed

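RNA was sequenced from 4 forelimb samples and 8 cultures, extracted with TRIzol and prepared with an mRNA library kit, per the labels' protocols. The authors deposited whole-number read counts per gene. FastQC 0.11.2, Trimmomatic 0.36, HISAT2 2.1.0, DESeq2 1.12.4 and GRCm38 are named per the submitters' processing notes; the counting tool, its annotation and its use of strand are not given in the sources used here. Symbols were available for 99.6% of forelimb and 99.5% of culture identifiers. Gene positions and exon lengths come from the GENCODE annotation of GRCm38.

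Genes with low counts were removed with filterByExpr, leaving 19987 in the forelimb and 14030 in the cultures. Counts were scaled by TMM and tested with edgeR 4.0.16 (quasi-likelihood, in R 4.3.3 with limma 3.58.1), with 1 fit for the 4 forelimb libraries and 1 for the 8 cultures. Benjamini-Hochberg adjustment ran over all genes tested, and an adjusted p under 0.05 was called. DESeq2 1.42.0, other scalings and filters, the replicate block and leaving out each library were alternatives. The fits were tested on simulated data with the same spread for every gene and no pairing, a simpler setting than these libraries. Replicate numbers came from the titles; same-numbered culture libraries deviated together in all 6 pairs of groups (r 0.343 to 0.609), so the numbers were taken to pair them, while the forelimb gave a single pair of groups (r 0.261) and was not taken as paired. The labels state no pairing, and the culture counts were deposited separately for each replicate number. Libraries of each group differed by more than sampling noise. The floor of 3 counts covers counting error only.

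The members and lists were chosen with earlier results of these data known. Named genes were the 9 members, Impdh2, up to 3 genes of each list and comparison with the smallest p among those whose higher group averaged 1 CPM or more, and the 3 genes most like each called member over the 8 cultures, among genes averaging 5 CPM or more (log2 CPM with a prior count of 2). Some results under this rule are not reported here. Of 160 list symbols 1, Mtres1, was not matched. Each of the 10 marker lists was summed per library; erythroid and surface ectoderm markers were tested in the forelimb only, with 0 called, and 0 endothelial or nerve markers were called, of which 2 each were tested in the cultures.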

Additional observations from a re-analysis of the deposited data

How the results depend on the processing

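Ppargc1b was called higher at R40D3 in both genotypes under every alternative run, and no member was called in a genotype comparison or the interaction under any. The Esrra adjusted p at R40D3 against R0D3 ran from 2.68e-05 to 0.0919 in WT and from 0.000907 to 0.251 in LysM-cKO. Tfb2m in WT also passed with library size alone (0.0451) and the stricter filter (0.0480), and Polrmt with only the 4 compared libraries (0.0464). With the replicate block the genes called were 3977 in WT, 4 members among them, 2982 in LysM-cKO, and 30 for genotype at R40D3; it changed no other call of the members than those given above. DESeq2 called 390 genes in the forelimb, 23 for genotype at R40D3 and 7 at R0D3. Library size alone called 0 genes for genotype at R40D3, gave a forelimb median and Nrf1 value of -0.051, and gave 0.019 for Nrf1 in LysM-cKO and 0.034 for Polrmt at R40D3. Without a low-count filter the WT median was 0.38 and Polrmt at R40D3 0.0078. With only the 4 compared libraries, 533 genes and 1 member were called in LysM-cKO and 0 genes for genotype at R40D3 and R0D3, with Polrmt at 0.0024. Without both LysM-cKO replicate 2 libraries, an alternative chosen after seeing the data, 311 genes and 1 member were called in LysM-cKO and 0 genes for genotype at R40D3 and R0D3. Then Nrf1 in LysM-cKO was 0.037, the genotype median at R40D3 -0.21, and at R0D3 Tfb1m -0.017, Tfb2m -0.0087, Polrmt -0.028 and Polg -0.078, with a Tfb1m interaction of 0.15. For these values the cause was not tested.

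With 1 library left out, where the lone sample of a group is assumed to vary like the others, the forelimb gave 0 to 604 genes, a median of -0.034 to 0.16, Nrf1 -0.13 to 0.21, Tfb2m -0.25 to 0.018, Polrmt -0.012 to 0.44 and Polg -0.38 to 0.16. WT cultures gave 689 to 2425 genes, 1 to 2 members and a median of 0.34 to 0.42; LysM-cKO gave 399 to 1317 genes, 1 to 2 members, a median of 0.21 to 0.44, Nrf1 -0.087 to 0.057, Tfb1m -0.038 to 0.44 and Polg -0.18 to 0.013. Genotype at R40D3 gave 0 genes throughout, a median of -0.21 to -0.043, Tfb1m -0.090 to 0.13, Polrmt -0.16 to 0.15 and Polg -0.093 to 0.011. Genotype at R0D3 gave 0 to 1 genes, Ppargc1b -0.31 to 0.83, Nrf1 -0.15 to 0.026, Tfb1m -0.018 to 0.43, Tfb2m -0.010 to 0.060, Polrmt -0.030 to 0.17 and Polg -0.080 to 0.087. The interaction gave a median of -0.25 to -0.047, Esrra -0.40 to 0.064, Tfb1m -0.40 to 0.044, Polrmt -0.24 to 0.075 and Polg -0.13 to 0.035. Depth limits Ppargc1b at R0D3, with 20 to 47 counts per library, and Ppargc1a in cultures, with at most 2.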
